A study of Mus musculus with 2 samples.

Results

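Collagens and the enzymes that modify them were examined in young mouse embryonic fibroblasts (MEFs) after knockdown of the lncRNA AK156230. The 44 genes are collagen chains and factors that hydroxylate, fold, cleave or crosslink them, listed by name with earlier results of these data known, and 43 of them were measured among the 18193 named genes of the array. Loxl2 was left out because its probe sets are annotated to more than 1 gene. The cells came from whole C57BL/6 embryos of 13.5 days, a mixed population of embryonic fibroblasts, and were used at passage 2. They were transfected with a GapmeR, an antisense oligonucleotide that directs RNase H to its target RNA. RNA of cells given GapmeR Control, a non-targeting oligonucleotide, went onto 1 array (the control array) and RNA of cells given GapmeR AK156230 onto another (the knockdown array). The time from transfection to RNA extraction was not stated for the arrays. The series thus holds 1 oligonucleotide against the lncRNA, and since no probe set was named for the lncRNA in the annotation used, its own level is not reported here. With 1 array for each condition, the differences below have no replicate check and were not tested, and they describe these cultures.

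Collagens are the main structural proteins that fibroblasts secrete. Each chain winds with its partners into a triple helix in the endoplasmic reticulum, where prolines and lysines are hydroxylated and a dedicated chaperone holds the helix, and after export the propeptides are removed and lysyl oxidases crosslink the molecules. Fibrillar collagens form the fibrils of connective tissue, network collagens form sheets such as basement membranes, FACIT collagens sit on the surface of fibrils, and type VI collagen forms beaded filaments around cells.

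Values are MAS5 signals, a brightness of each probe set on a linear scale, and each difference is a log2 ratio, knockdown array over control array, at the brightest probe set of the gene. The median signal was 54.8 on the control array and 51.0 on the knockdown array, and the 25th percentiles were 25.03 and 23.6. As a yardstick, the log2 ratios at the brightest and second brightest probe sets were compared within 5112 genes. Both probe sets had to reach the median signal of their brighter array. That gave an SD of 0.28 for a single probe set, which does not cover dimmer probe sets. The SD was 0.40 over 22 of the collagen and enzyme genes. Among genes at least 2-fold lower at the brightest probe set it was 0.53 over all 261 and 0.49 over the 7 collagen and enzyme genes. These are spreads between probe sets and not between cultures.

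Of the 43 measured genes, 14 were at least 2-fold lower on the knockdown array, and 0 were 2-fold higher. They were 13 collagen chains and 1 lysyl oxidase. Over all named genes 3.85% were lower and 1.59% were higher by 2-fold or more, and 4.92% were lower among the genes that reached the median signal of their brighter array, as 41 of the 43 did. The median log2 ratio was -0.78 for the 43 genes, -0.99 for the 27 collagen chains and -0.72 for the 16 measured enzymes and helpers, against -0.074 for all named genes. In all, 40 of the 43 had log2 ratios below 0, as did 58.8% of all named genes, and 39 when both arrays were scaled to the same median, since Plod2 then lay above 0. That scaling raised the median of all named genes by 0.11 and left 12 of the 14 past 2-fold, and the share of lower genes among all genes past 2-fold was 70.8% in the signals as deposited and 60.0% after it. Fewer fibroblasts and less collagen RNA per fibroblast cannot be told apart in RNA of whole cultures.

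**Figure D1:**
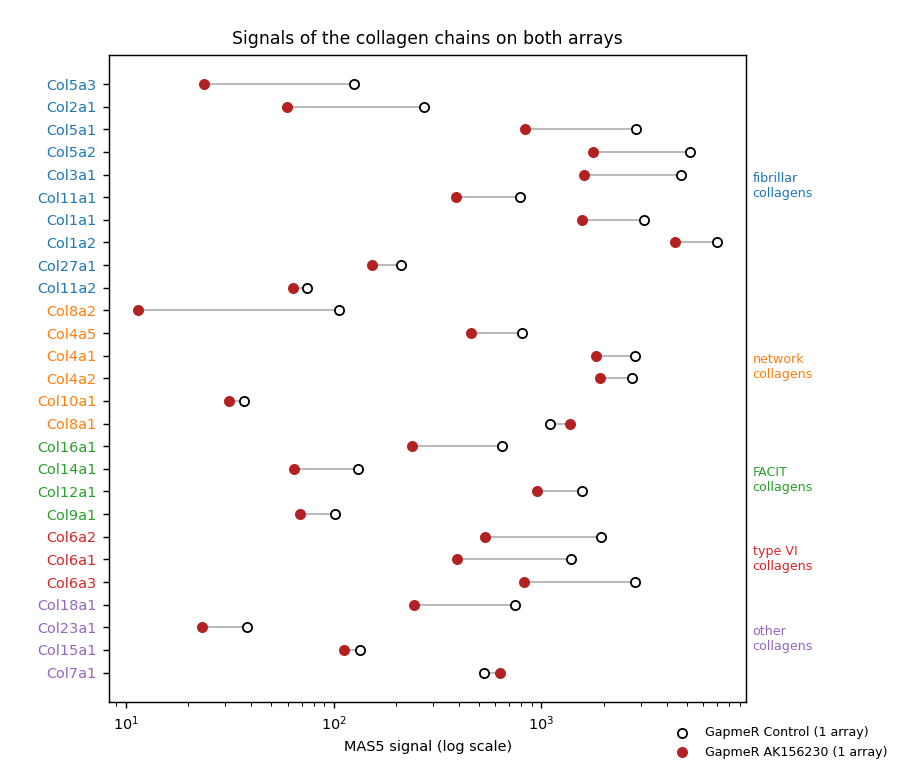
MAS5 signal on a log axis of each of the 27 collagen chains, grouped by class, with an open point for the control array, a filled point for the knockdown array and a line joining them. The filled point lies to the left of the open one for 25 chains and to the right for Col8a1 and Col7a1.

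Fibrillar collagens were lower for all 10 chains measured, 6 of them by 2-fold or more, with a median log2 ratio of -1.28. Type I collagen, the main fibril protein of skin, bone and tendon, is built from Col1a1 and Col1a2. Col1a1 had signals of 3124 on the control array and 1570.4 on the knockdown array, a log2 ratio of -0.99 that lay just inside 2-fold. Its second probe set read 2929 and 1137, a log2 ratio of -1.36, so averaging the probe sets put Col1a1 past 2-fold at -1.18. Col1a2 had signals of 7019 and 4399, a log2 ratio of -0.67, while its other probe sets stood at -1.16 and -1.15. The brightest probe set of Col1a2 thus showed the smaller difference, and it was near the top of the range of the arrays, whose highest signals were 8977 and 9207. Saturation of such probe sets was not tested.

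Type III and type V collagens, which are laid down in the same fibrils as type I, showed larger differences than the type I chains at their brightest probe sets. Col3a1, the only chain of type III collagen, had signals of 4712 on the control array and 1599 on the knockdown array and was 2.95-fold lower. Col5a2 had 5217 and 1770.4 and was 2.95-fold lower. These genes lie side by side on chromosome 1 of GRCm38, Col3a1 at chr1:45311538-45349706 and Col5a2 at chr1:45374331-45503282, and both had a log2 ratio of -1.56. Their second probe sets, which were dimmer, differed more: that of Col3a1 read 857 and 98, a log2 ratio of -3.13, and that of Col5a2 read 1309.7 and 189, a log2 ratio of -2.80. Col5a1, the chain found in nearly all type V molecules, which start fibrils and limit their width, had signals of 2867 and 832 and was 3.45-fold lower. All of its probe sets were lower, at log2 ratios of -1.79, -2.03 and -2.10. Col5a3, a rarer type V chain, had signals of 125 and 23.9. The latter was close to the 25th percentile of that array, and its log2 ratio of -2.39 became -1.63 when 24.3, the 25th percentile of all signals, was added to every signal. Its other probe set was dim on both arrays, at 34.7 and 34.6.

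Fibrillar chains best known from cartilage were also lower. Col2a1, the chain of type II collagen, had signals of 271 on the control array and 59.9 on the knockdown array and was 4.52-fold lower. Col11a1, which starts fibrils in cartilage and is also made elsewhere, had 785 and 390.1, a log2 ratio of -1.01. It was just past 2-fold, with -1.48 at its other probe set, and was within 2-fold at -0.90 when the arrays were scaled to the same median, at -0.96 after quantile normalization and at -0.97 with the offset. Col11a2 had 74 and 64 and Col27a1, a fibrillar chain of developing cartilage, 211 and 153, log2 ratios of -0.21 and -0.47 that lay within 2-fold. Of 12 markers of chondrocytes, 1 was at least 2-fold lower and 0 were higher, and they summed to 713 on the control array and 455 on the knockdown array. The defining marker Acan, which encodes the core protein of aggrecan, was under the 25th percentile of both arrays (23.9 and 17.9), as were Matn1 (15.2 and 10.4) and Hapln1 (19.2 and 19.3). However, 5 of the 12 reached the median of their brighter array: Matn3, the marker that was lower (90.9 and 26.4, 3.44-fold lower), Sox5 (118 and 60.9), Sox6 (98.9 and 73.8), Sox9 (79.8 and 56.2) and Snorc (111 and 74.1). In all, 11 of the 12 had log2 ratios below 0, with a median of -0.50. The part of cartilage cells in the Col2a1 signal was not tested.

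Type VI chains were lower to nearly the same degree. Type VI molecules are typically built from Col6a1, Col6a2 and Col6a3, and their filaments link cells to the surrounding fibrils. Col6a1 had signals of 1392 on the control array and 392 on the knockdown array and was 3.55-fold lower. Col6a2 had 1926 and 537 and was 3.58-fold lower, with a log2 ratio of -1.90 at its second probe set. Col6a3 had 2823 and 826 and was 3.42-fold lower. Their log2 ratios of -1.83, -1.84 and -1.77 spanned 0.068. The same span was 0.12 for Col4a1 and Col4a2, 0.32 for the type I chains, 0.83 for the type V chains and 1.97 for the chains of type XI collagen (Col11a1, Col11a2 and Col2a1), and it was largest, at 3.53, for the type VIII chains Col8a1 and Col8a2. When probe sets were averaged within each gene, the spans of types VI and IV changed places, at 0.096 and 0.068. The spans of types V and VIII rest on the dim signals of Col5a3 and Col8a2 and were smaller with the offset. Col5a1, Col5a2 and Col5a3 were then at -1.76, -1.55 and -1.63, closer together than Col1a1 and Col1a2 (-0.98 and -0.67). Col8a1 and Col8a2 were at 0.31 and -1.87. Col6a1 and Col6a2 are near each other on chromosome 10, at chr10:76708792-76726044 and chr10:76595756-76623630, whereas Col6a3 lies on chromosome 1 at chr1:90766860-90844001.

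Promoter sequence is shown for the type VI chains, which were lower together, for Col3a1 and Col1a2 as lower fibrillar chains, and for Col8a1, which was not lower. Each line holds the 250 bases before the RefSeq start site of the gene in GRCm38.p6, from 5′ to 3′ on the strand of the gene, with capitals at matches to any of the motifs named below. The windows lie at chr10:76726045-76726294 on the minus strand, chr10:76623631-76623880 on the minus strand, chr1:90843972-90844221 on the minus strand, chr1:45311288-45311537 on the plus strand, chr6:4505368-4505617 on the plus strand and chr16:57754738-57754987 on the minus strand, in the order of the lines. The annotated span of Col6a3 reaches into its window.
Col6a1: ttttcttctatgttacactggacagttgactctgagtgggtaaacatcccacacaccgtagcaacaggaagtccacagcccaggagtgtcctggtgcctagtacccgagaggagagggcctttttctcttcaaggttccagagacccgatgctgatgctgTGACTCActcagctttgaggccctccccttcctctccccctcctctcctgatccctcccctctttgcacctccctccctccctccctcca
Col6a2: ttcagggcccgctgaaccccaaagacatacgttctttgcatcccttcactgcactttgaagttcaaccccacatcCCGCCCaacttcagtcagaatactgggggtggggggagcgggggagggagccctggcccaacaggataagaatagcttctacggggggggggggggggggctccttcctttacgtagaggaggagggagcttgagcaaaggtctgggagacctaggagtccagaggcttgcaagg
Col6a3: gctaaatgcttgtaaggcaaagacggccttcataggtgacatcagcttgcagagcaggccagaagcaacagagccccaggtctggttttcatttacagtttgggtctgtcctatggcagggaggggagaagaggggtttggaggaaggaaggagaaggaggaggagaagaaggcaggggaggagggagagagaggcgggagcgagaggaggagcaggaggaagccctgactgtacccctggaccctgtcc
Col3a1: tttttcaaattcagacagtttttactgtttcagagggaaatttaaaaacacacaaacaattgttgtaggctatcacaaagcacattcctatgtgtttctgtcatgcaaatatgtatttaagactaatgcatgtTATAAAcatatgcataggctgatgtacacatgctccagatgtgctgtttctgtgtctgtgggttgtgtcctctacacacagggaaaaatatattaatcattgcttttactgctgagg
Col1a2: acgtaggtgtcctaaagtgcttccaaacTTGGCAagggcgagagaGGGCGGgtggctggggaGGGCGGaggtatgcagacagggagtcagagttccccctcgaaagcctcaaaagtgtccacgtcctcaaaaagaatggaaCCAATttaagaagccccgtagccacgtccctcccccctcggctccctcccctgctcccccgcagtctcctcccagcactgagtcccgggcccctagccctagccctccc
Col8a1: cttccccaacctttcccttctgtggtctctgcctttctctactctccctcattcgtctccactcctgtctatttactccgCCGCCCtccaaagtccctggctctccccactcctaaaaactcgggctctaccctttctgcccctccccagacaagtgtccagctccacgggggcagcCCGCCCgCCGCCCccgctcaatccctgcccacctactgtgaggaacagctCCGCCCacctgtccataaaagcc

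The printed windows of the type VI genes had no motif of those searched in common. The motifs were the TATA box (TATAAA), the CCAAT box (CCAAT), the GC box (GGGCGG), the half-site of the NFI factors (TTGGCA) and the AP-1 site (TGACTCA), each searched on both strands. The reverse of a CCAAT box and an NFI half-site can overlap (ATTGGCA), but did not in the lines above. The window of Col6a1 held 1 AP-1 site, that of Col6a2 held 1 GC box and that of Col6a3 none of the motifs. Col3a1 held 1 TATA box. Col1a2 held 1 CCAAT box, 2 GC boxes and 1 NFI half-site, and Col8a1 held 4 GC boxes. RefSeq windows of 300 bases, 250 before and 50 after the start site, were at hand for 33 of the 43 genes, 37 windows in all. A GC box was in 28 of these windows (75.7%), against 35.7% of all 32851 windows. The median GC content of the 250 bases before the start was 60.8% in the former and 52.4% in the latter, and the share of GC boxes was not compared at equal GC content. For the other motifs the shares were 16.2% and 13.6% (TATA box), 35.1% and 37.4% (CCAAT box), 13.5% and 14.1% (NFI half-site) and 2.70% and 5.20% (AP-1 site). The NFI half-site was in the windows of Col16a1, Col1a2, Col27a1, Col4a5 and Col9a1. A match of letters is a description and shows no binding.

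Network collagens were closer to all named genes, with a median log2 ratio of -0.58 and 1 of 6 chains past 2-fold. Col4a1 and Col4a2, the chains present in every basement membrane, start next to each other on opposite strands of chromosome 8, where their annotated spans overlap at their first bases (chr8:11198423-11312889 and chr8:11312805-11449287). Col4a1 had signals of 2835 on the control array and 1822 on the knockdown array and Col4a2 2723 and 1906, log2 ratios of -0.64 and -0.51. The second probe set of Col4a1, also bright (1755 and 1469), showed a smaller difference, at -0.26. Col4a5, a basement membrane chain encoded on the X chromosome, had 806 and 456, a log2 ratio of -0.82, and -0.64 at its second probe set. These type IV chains were all lower by less than 2-fold. Col8a1, a short chain found around vessels and in the cornea, was higher on the knockdown array by less than 2-fold, with signals of 1103 and 1377 and log2 ratios of 0.32, 0.45 and 0.43 at its probe sets. Its partner Col8a2 had signals of 106 and 11.4, the latter under the 25th percentile of the array. The log2 ratio of Col8a2 was -3.21 as deposited and -1.87 with the offset, so its size depends on how such a low signal is treated. Col10a1, a marker of hypertrophic cartilage, was dim on both arrays (37.1 and 31.5).

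FACIT collagens were lower for all 4 chains, 2 of them by 2-fold or more. Col16a1, which associates with several kinds of fibril, had signals of 648 on the control array and 238 on the knockdown array and was 2.73-fold lower. Col14a1, found on fibrils of skin and tendon, had 131 and 64.7, a log2 ratio of -1.02. Its second probe set stood at -1.85 and another, dim one at -0.13, and it was within 2-fold with arrays scaled to the same median, after quantile normalization or loess correction, and with the offset, between -0.95 and -0.80. Col12a1, which coats type I fibrils, had 1565 and 949.8, a log2 ratio of -0.72. Its other probe sets were at 0.00086, 0.0056 and 0.40, so the mean over its probe sets was -0.078. Col9a1, a cartilage chain, had 102 and 69, a log2 ratio of -0.56, and -0.33 at its second probe set.

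Chains outside these classes differed among themselves. Col18a1, a basement membrane collagen whose end piece is endostatin, had signals of 747 on the control array and 243 on the knockdown array and was 3.08-fold lower, with -1.21 on the log2 scale at its second probe set. Its relative Col15a1 had 134 and 112, a log2 ratio of -0.26. Col7a1, which forms the anchoring fibrils under the epidermis, had 532 and 629.6 and a log2 ratio of 0.24. Col23a1, a transmembrane collagen, was under the median of both arrays (38.1 and 23.3).

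**Figure D2:**
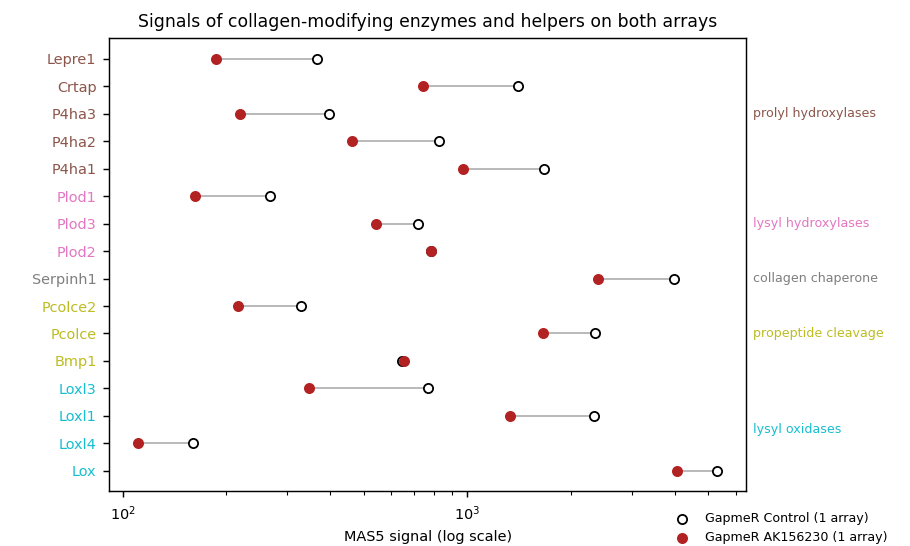
MAS5 signal on a log axis of each of the 16 measured enzymes and helpers, grouped by role, with an open point for the control array, a filled point for the knockdown array and a line joining them. Loxl3 shows the widest gap, from 768 to 347, and the points of Plod2 (786 and 785) and Bmp1 (645 and 653) lie almost on each other.

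Enzymes and helpers had a median log2 ratio nearer to 0 than the fibrillar and type VI chains, although several lay below fibrillar chains such as Col1a2: 15 of 16 had log2 ratios below 0 (Plod2 only in the signals as deposited, not after scaling to the same median), and Loxl3 was the only one lower by 2-fold or more. The genes of proline hydroxylation lay in a narrow range at their brightest probe sets. P4ha1, P4ha2 and P4ha3 encode the catalytic subunits of prolyl 4-hydroxylase, whose product keeps the triple helix stable at body temperature, and their log2 ratios were -0.78, -0.84 and -0.85. Their signals were 1671 on the control array and 971 on the knockdown array for P4ha1, 829 and 463 for P4ha2 and 396 and 219 for P4ha3. Lepre1 (P3h1), the prolyl 3-hydroxylase, and its partner Crtap form 1 complex. Lepre1 had signals of 365 and 186 and Crtap 1400.4 and 741, log2 ratios of -0.97 and -0.92, just inside 2-fold. All 5 genes were thus lower by 1.72-fold to 1.96-fold at these probe sets, and none passed 2-fold. The second probe sets of Lepre1 and P4ha1 showed smaller differences, with log2 ratios of -0.62 (256 and 167) and -0.42 (79.2 and 59.1).

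Lysyl hydroxylases, which prepare lysines for crosslinks and sugars, were less alike. Plod1 had signals of 269 on the control array and 163 on the knockdown array, a log2 ratio of -0.72, while its dimmer second probe set (52.3 and 47.9) was at -0.13 and the mean at -0.42. Plod3, which also adds sugar to hydroxylysine, had 720.4 and 545, a log2 ratio of -0.40. Plod2, which acts on the ends of the chains that form crosslinks, had 786 and 785, a log2 ratio of -0.0031, and its second probe set was at 0.33. Serpinh1, the chaperone specific to procollagen, had 3971 and 2400.1, and its probe sets gave nearly the same log2 ratio (-0.73 and -0.74).

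Genes of propeptide removal and crosslinking were mostly within 2-fold. Bmp1, the protease that removes the carboxyl propeptide, had signals of 645 on the control array and 653 on the knockdown array, a log2 ratio of 0.018. Its enhancers Pcolce and Pcolce2 had 2344 and 1653 and 328 and 216, log2 ratios of -0.50 and -0.61. Lox, the copper enzyme that crosslinks collagen and elastin, was bright on both arrays (5305 and 4058), with log2 ratios between -0.47 and -0.39 over its probe sets. Loxl1, best known for its part in elastic fibres, had 2322 and 1325, a log2 ratio of -0.81, and -1.11 at its second probe set. Loxl3 had 768 and 347 and was 2.21-fold lower. Loxl4 had 159.8 and 111, a log2 ratio of -0.53, but its dim second probe set (34.9 and 37.5) was at 0.10 and the mean at -0.21.

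**Figure D3:**
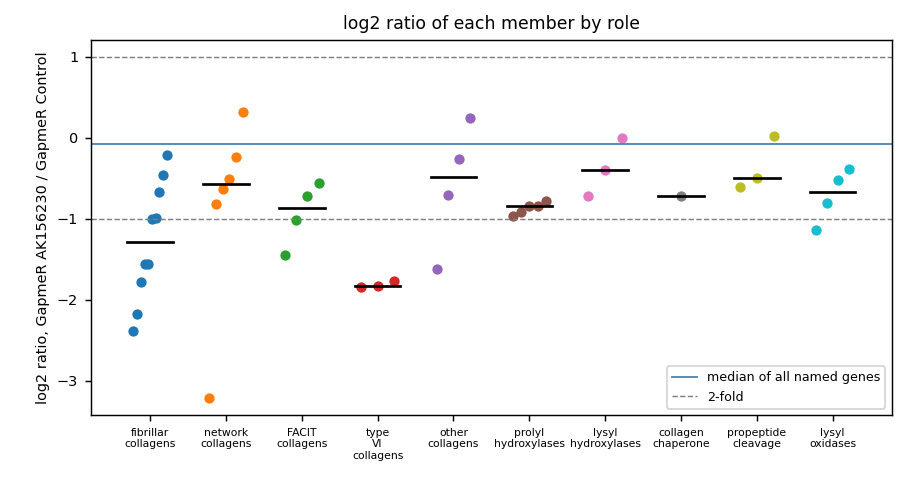
log2 ratio (knockdown over control) of every measured gene, grouped by role, with a black bar at the median of each role, a blue line at the median of all named genes and dashed lines at 2-fold. The type VI chains lie together at -1.83 and the prolyl hydroxylase genes at -0.85, while fibrillar chains spread from -2.39 to -0.21.

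Where a gene had several probe sets, they mostly went the same way. The 43 genes had 79 probe sets, of which 67 had log2 ratios below 0, a count that includes the 16 genes with only 1. Probe sets of Bmp1, Col12a1, Col23a1, Loxl4 and Plod2 lay on both sides of 0. Of 27 genes with more than 1 probe set, 6 were lower by 2-fold or more at every one: Col3a1, Col5a1, Col5a2, Col6a2, Col11a1 and Col18a1. The same count was not made over all named genes, so it has no background here. A second probe set at or above the median signal was present for 7 of the genes that were lower by 2-fold at the brightest, and it was past 2-fold for all 7, against 156 of 261 among all named genes so selected. It was lower still than the brightest in 6 of the 7, with Col18a1 as the exception, against 31.4% of the 261. Among all 22 members with such a pair the second was the lower in 12 (54.5%), against 43.1% of 5112 genes. Where the probe sets lie along the transcripts was not analysed here.

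**Figure D4:**
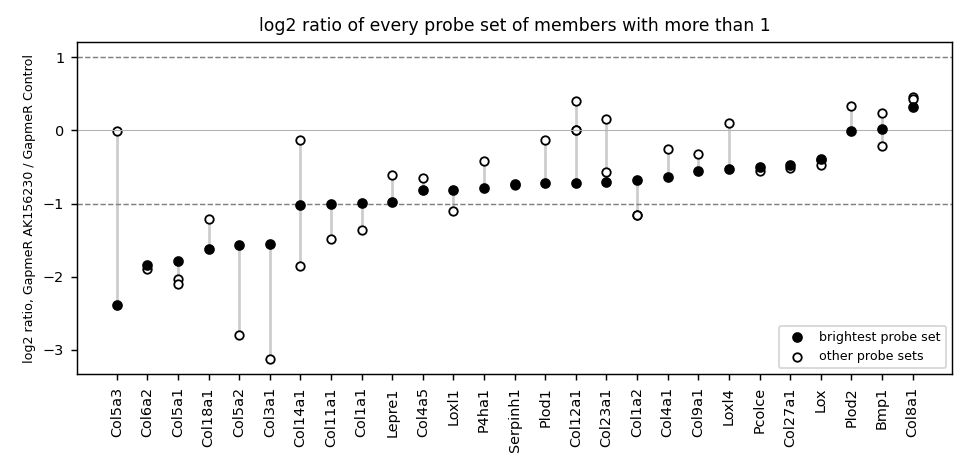
log2 ratio of every probe set of the 27 genes with more than 1, ordered by the brightest probe set (filled), with the other probe sets open, a grey line over their range and dashed lines at 2-fold. The widest ranges are those of Col5a3 (from -2.39 to -0.0042), Col14a1 and Col3a1 (from -3.13 to -1.56).

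Long genes over the whole array were more often lower on the knockdown array than short ones, and several collagen genes are long, so the genes were also set beside all named genes of similar genomic span. Under 40 kb, 6 of 22 members were lower by 2-fold or more, against 2.01% of all named genes of that span. These 6 were Col2a1, Col3a1, Col6a1, Col6a2, Col8a2 and Loxl3. From 40 to 100 kb, 3 of 8 members were lower, against 4.25%. Over 100 kb, 5 of 13 members were lower, against 13.6%. The median log2 ratio of the members was -0.82, -0.69 and -0.72 in these classes, while that of all named genes was -0.041, -0.10 and -0.26. The members' medians thus differed little between these classes, but the classes differ in makeup. Members over 100 kb were all collagen chains, whereas those under 40 kb included many enzymes and helpers, such as Lox and Serpinh1. No median was taken for the chains alone in each class, so the medians do not show how the chains vary with span. Col6a1, with a span of 17.3 kb, and Col5a1, with 153 kb, had log2 ratios of -1.83 and -1.79, and the longest member, Col23a1 at 294 kb, had -0.71.

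**Figure D5:**
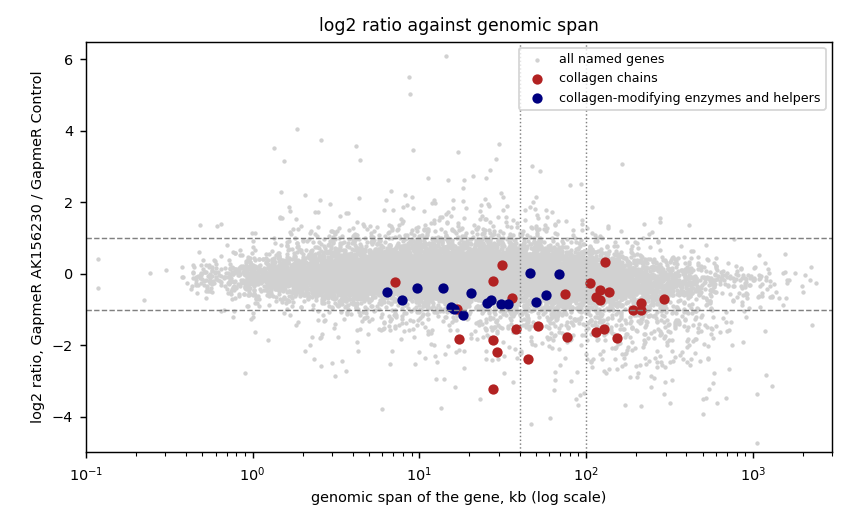
log2 ratio (knockdown over control) against genomic span on a log axis, with all named genes in grey, collagen chains in red, enzymes and helpers in blue, dashed lines at 2-fold and dotted lines at 40 and 100 kb. Lower collagen chains are seen on both sides of the dotted lines, 5 of them under 40 kb and 5 over 100 kb.

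Lists of other genes of collagen synthesis, export, sensing and turnover held 115 measured genes, of which 12 were lower and 1 was higher by 2-fold or more, with a median log2 ratio of -0.23. Over all named genes the shares were 3.85% and 1.59% and the median -0.074, which is the background for each list that follows. Of 15 further collagen chains 1 was lower and 1 higher, with a median log2 ratio of -0.24. Col24a1, a fibrillar chain, was 5.17-fold lower (67.9 and 13.1), a log2 ratio of -2.37 that became -1.30 with the offset, and Col9a3, a chain of type IX, was 2.38-fold higher (39.2 and 93.4) but at 0.89 on the log2 scale with the offset. Both were dim on at least 1 array. None of 13 partners in folding and glycosylation passed 2-fold, and 12 of them had log2 ratios below 0, with a median of -0.35. They include P4hb, the beta subunit of prolyl 4-hydroxylase, at 2409 and 1884 (log2 ratio -0.35), Ppib, the cyclophilin of the Crtap complex, at 2955 and 2509.7 (-0.24), and Colgalt1, which adds galactose to hydroxylysine, at 1034 and 666 (-0.63).

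Of 13 genes of procollagen export, Sec24d, a cargo adaptor of the vesicles that leave the endoplasmic reticulum, was lower (801 and 389, 2.06-fold lower), and just within 2-fold with the offset. The other 12, among them the collagen export receptor Mia3 (788 and 641), lay within 2-fold (median of all 13 on the log2 scale -0.071). None of 5 other propeptidases (of 7 listed), 6 genes of proline supply (of 8 listed) and 7 of copper and ascorbate supply passed 2-fold. Their median log2 ratios were -0.18, -0.13 and -0.23. Only 1 of the 5 propeptidases, Tll1 (174 and 224), reached the median of its brighter array. The others were under the median of both arrays, so little can be read from that list. Aldh18a1, which makes the precursor of proline, was just within 2-fold (759 and 386, log2 ratio -0.98).

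Receptors that bind collagen and genes of its turnover included larger differences, although the median log2 ratios of both lists, -0.13 and -0.34, were small. Of 9 receptors 2 were lower: Ddr2, the receptor tyrosine kinase for fibrillar collagen, was 3.01-fold lower (1347 and 447), and Mrc2, which takes up collagen fragments, was 2.43-fold lower (1224 and 504). Of the integrin chain genes, Itgb1 was not lower (1411 and 1731), and Itga1 was just within 2-fold (91.2 and 46.2, log2 ratio -0.98). Itga10 was nearly level (76.3 and 75.6), and Itga2 was dim on both arrays (34 and 40.2). Of 12 genes of collagen degradation 3 were lower and none was higher. Mmp13, a collagenase, was 5.08-fold lower (209.7 and 41.3), Mmp2, a gelatinase, 2.15-fold lower (2328 and 1083), and Fap, a serine protease of the fibroblast surface, 5.17-fold lower (204 and 39.4). The genes of the inhibitors Timp1 (3072 and 3051), Timp2 (3938 and 3339.7) and Timp3 (3273 and 3180.1) were bright and lower by at most 1.18-fold.

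Among 15 partners on the fibril surface and in the pericellular matrix 3 were lower, and the median log2 ratio was -0.34. Ogn and Lum, small proteoglycans of collagen fibrils, were 8.97-fold lower (1217 and 136) and 2.24-fold lower (487 and 217), and the matricellular gene Thbs2 was 2.51-fold lower (1886 and 750.2). Others of this list were nearly level, such as the small proteoglycan genes Dcn (2309 and 2407) and Bgn (5742 and 5147). Among 20 regulators of collagen genes 2 were lower, and the median was -0.19. These were Nfia (181 and 34.5, 5.24-fold lower) and Nfib (445 and 184, 2.42-fold lower), which encode NFI factors and span 541 kb and 217 kb. Genes of the TGF-beta pathway, which raises collagen transcription, lay within 2-fold. Tgfb1, Tgfb2, Tgfb3, Tgfbr1 and Tgfbr2 had log2 ratios of -0.45, -0.35, -0.083, -0.74 and -0.37. Smad2, Smad3 and Smad4 were at 0.055, -0.15 and 0.019. Smad7, an inhibitor of that pathway, was at 0.64, and Ccn2, a target of that pathway, 0.32.

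The label of the cells was set beside marker lists. Vim and S100a4 were bright and nearly level (6598 and 6212, and 3986 and 3926), but 7 of 15 fibroblast markers were at least 2-fold lower and 0 higher. The summed signal of that list was 36116 and 24881 and its median log2 ratio -0.91, and Pdgfra (1039 and 283), Prrx1 (1280.2 and 217) and Fap were among the lower ones. The list shares Dcn, Fap, Fn1 and Lum with the lists above. None of 8 markers of smooth muscle cells and myofibroblasts passed 2-fold, with summed signals of 14514 and 14015 and a median log2 ratio of -0.029, and Acta2 read 7269.9 and 6837. Of 8 epithelial markers 3 were higher, with summed signals of 619 and 946: Krt18 (127 and 299), Krt19 (129 and 269) and Cldn4 (32.6 and 94.9). Epcam (148 and 103) and Krt8 (77.1 and 81.1) also reached the median of their brighter array. The defining Cdh1 was under the median of both arrays (36 and 37.2). Of 9 endothelial markers 1 was higher (summed signals 907 and 728), as was 1 of 7 leukocyte markers (1190.1 and 1088), and the defining Pecam1 (33.6 and 27.8) and Ptprc (30.9 and 25.9) were under the median of both arrays. Other members of these lists were brighter, such as the endothelial markers Flt1 (580.2 and 318) and Eng (125 and 157) and the leukocyte markers Lyz2 (725 and 527), Csf1r (174 and 142) and Cd68 (108 and 275), the leukocyte marker that was higher. Of 6 adipocyte markers 2 were lower (1361 and 498), and none of 5 osteoblast markers passed 2-fold (173 and 145). What part the cell makeup of the cultures had in the collagen signals was not tested.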

How the data were processed

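RNA of MEFs that received GapmeR AK156230 or the control GapmeR was hybridized to 1 array for each. The deposited intensity values were made by the authors and are MAS5 probe set signals on a linear scale and scaled per array, by the submitters' processing notes; for the version of MAS5 and its scaling target, the sources used here give nothing. A porcine array is named in the methods, but the RNA is mouse and the probe sets were annotated as mouse. Detection calls did not come with the 45037 probe sets, and precision is limited by the number of arrays. Of the probe sets, 34945 had 1 gene symbol, 932 had several and 9160 none listed. Symbols were updated through the Entrez ID (34741 probe sets), and positions, spans and promoters are those of RefSeq for GRCm38.p6.

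Log2 ratios were taken on the signals as deposited, and the value of a gene is that of the probe set whose log2 signal was highest on average. SAM, the test stated in the methods, needs replicates, so genes were counted at the stated 2-fold without a test. The genes and lists were chosen with earlier results of these data known, so no list is independent evidence. Named with values were genes past 2-fold or at or above the 75th percentile of the brighter array, and from related lists those past 2-fold at or above its median, with some others for contrast after their values were seen. Alternatives were median scaling, quantile normalization, loess, an offset of 24.3, signal minima at the 25th, 50th and 75th percentiles, thresholds of 1.5-fold and 3-fold, averaging a gene's probe sets, and leaving out _x_at and _s_at probe sets. The classes of genomic span and the look at each further probe set were chosen after seeing the data. The counting was checked on simulated data. Python 3.11.15, numpy 2.4.6, pandas 2.3.3, statsmodels 0.14.6 and matplotlib 3.10.9 were used.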

Additional observations from a re-analysis of the deposited data

How the results depend on the processing

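The 14 lower genes ranged from 11 to 15 over the alternatives that kept the 2-fold threshold, and none was higher under any alternative tried. Col11a1 and Col14a1 were within 2-fold with median scaling, quantile normalization or the offset (12 genes each), Col14a1 also after loess (13), and Col1a1 was added by the mean of all probe sets (15). At the 75th percentile of signal 11 of 34 genes were lower, since Col5a3, Col8a2 and Col14a1 were too dim to be counted. At 1.5-fold 29 and at 3-fold 8 of the genes were lower. Over all named genes the counts were 700 lower and 289 higher, 1762 and 997 at 1.5-fold, and 264 and 80 at 3-fold. At the 75th percentile of signal they were 430 and 151 of 7628 genes. Lower and higher genes numbered 583 and 388 with median scaling, 616 and 351 after quantile normalization and 644 and 330 after loess. They numbered 472 and 157 with the offset and 535 and 253 with the mean of all probe sets. Medians of the 43 genes, the chains and the enzymes stayed within -0.82 to -0.68, -1.01 to -0.80 and -0.73 to -0.61. Of 258 values of single genes under the alternatives planned, 246 moved by less than the SD of 0.28 between probe sets, 12 by more, and no gene past 2-fold changed sign. All 12 came from the offset or from averaging probe sets. Many of the 246 were bound to stay, since median scaling shifts every log2 ratio by the same 0.11. Averaging cannot change the 16 genes with 1 probe set, and leaving out _x_at and _s_at probe sets changed only Serpinh1. No paired analysis was possible because each condition had 1 array, and without replicates or detection calls no value has an error between cultures.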
